A study of Mus musculus with 2 samples.

Results

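Mesothelial marker genes were read here in uterine stromal cell isolates of Hand2-null mice and of floxed control mice. The set holds 8 genes, Gpm6a, Upk3b, Upk1b, Lrrn4, Msln, Muc16, Bnc1 and Wt1, and was chosen by gene name. A probe set was taken when the platform annotation gave it exactly 1 gene symbol and that symbol was one of these, which gave 13 of the 34945 such probe sets on the array. These cover 8 of 18193 genes. The Hand2-null array carried RNA of mice in which floxed Hand2 had been crossed with PRcre, a Cre recombinase expressed from the progesterone receptor gene, and the other array carried RNA of mice labelled Hand2 floxed. Both labels give day 4 of pregnancy and a mixed C57BL/6 and SV129 background, and both list PRcre in that background, so the labels do not settle whether the controls carried Cre. RNA was pooled by genotype before hybridization, with 5 mice per genotype in the treatment protocol and 4 in the extraction protocol. With 1 array per genotype there was no replicate, no error of a difference and no test, and every value below compares 2 pools.

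The mesothelium is the flat epithelium that covers the peritoneal side of organs, and on the uterus it forms the outer surface of the serosa, over the smooth muscle of the myometrium. Its cells carry microvilli, secrete hyaluronan and lubricating glycoproteins, and express keratins together with genes of mesenchymal origin such as Wt1. It is not part of the endometrium, but the isolation started from pieces of whole uterine horn. Several of its markers are made elsewhere too. Gpm6a is a neuronal gene, uroplakins are named for the bladder lining, Bnc1 is made by stratified epithelia and germ cells, and Wt1 is made by uterine stromal cells. In pooled RNA of cell isolates, fewer cells of a type and less transcript per cell cannot be told apart.

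The deposited values are MAS5 signals, in arbitrary units on a linear scale, scaled by array. A floor was set at the 60th percentile of each array, which was 67.5 in the Hand2-null array and 64.2 in the control array. A probe set was called measured when it reached the floor in at least 1 array. Where the other array was under the floor, its signal was replaced by the floor and the fold is written as "at least", and where both were under it no fold is given. The labels were checked on Hand2, whose best probe set, here always the one of highest mean log2 signal, read 38.5 in the Hand2-null array and 1545 in the control array, at least 22.9-fold lower. For the labelled stromal cell type, Pdgfra, a growth factor receptor of fibroblasts, read 2339 in the Hand2-null and 3121 in the control array. Vim, the mesenchymal filament vimentin, read 5367 and 6551 in the same order. These signals do not show purity. In that order the muscle marker Myh11 read 5768 and 1795, and the epithelial marker Cdh1 read 856 and 746.

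Of the 8 mesothelial genes, 7 had the higher of their signals in Hand2-null cells, and Wt1 had it in control cells. With no floor, 46.4% of the 18193 genes were higher in Hand2-null cells. The count of 7 includes Muc16, which was under the floor in both arrays. Gpm6a was 3.40-fold and Upk3b 2.67-fold higher, both above the floor in both arrays. Msln, Bnc1, Lrrn4 and Upk1b reached the floor in the Hand2-null array and not in the control array, so that bounds of 1.44-fold to 1.91-fold are all that can be given. Wt1 was well above the floor in both arrays and did not go with the others. The median log2 ratio of the 7 measured members, with bounds at their lowest value, was 0.82, against -0.03 over the 10371 measured genes. For the 4 genes measured through the Hand2-null array alone, a higher value there follows from the floor, so this median and the counts of higher genes are descriptions only. The 8 genes lie on 7 chromosomes in RefSeq, with Wt1 and Lrrn4 both on chromosome 2.

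**Figure D1:**
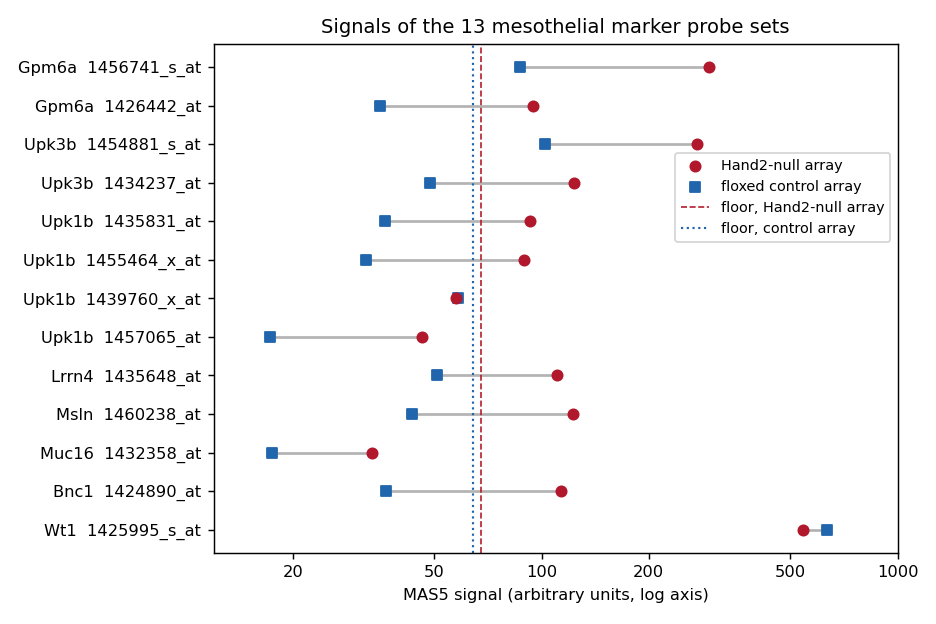
MAS5 signal (arbitrary units, log axis) of the 13 probe sets of mesothelial marker genes, with a circle for the Hand2-null array and a square for the floxed control array, 1 array each. Vertical lines mark the floors of 67.5 (Hand2-null) and 64.2 (control). The circle lies right of the square for 11 probe sets, and left of it for Wt1 and, by less than a symbol's width, for 1439760_x_at of Upk1b.

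The membrane proteins were read first. Gpm6a encodes neuronal membrane glycoprotein M6A, a multipass protein of the proteolipid family that promotes filopodia in neurons. Its probe set 1456741_s_at read 295 in the Hand2-null array and 86.8 in the control array, a log2 ratio of 1.77, which placed it 28th from the highest among the 10371 measured genes. The second probe set, 1426442_at, had 94.6 in the Hand2-null array and 35.1 in the control array, a difference of at least 1.47-fold. Both probe sets were higher in the Hand2-null array, the first with the control signal 1.35 times the floor and the second with it under the floor. For the second a higher value follows from the floor.

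Upk3b encodes uroplakin 3b, a protein with a single membrane span that pairs with a tetraspanin uroplakin and is used as a mesothelial marker in mice. Probe set 1454881_s_at read 273 in the Hand2-null array and 102 in the control array, a log2 ratio of 1.42 and the 76th highest of the measured genes. Probe set 1434237_at had 123 in the Hand2-null array and 48.7 in the control array, a difference of at least 1.92-fold. The annotation gives both probe sets the same source sequence, so they are not independent readings of the gene.

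Upk1b encodes a tetraspanin uroplakin, and it was read by 4 probe sets. Probe set 1435831_at read 92.6 in the Hand2-null array and 36.2 in the control array, at least 1.44-fold higher. Probe set 1455464_x_at, which shares its source sequence with the first, had 89.1 in the Hand2-null array and 32.1 in the control array, at least 1.39-fold higher. The remaining ones were under the floor in both arrays, 1457065_at at 46.3 in the Hand2-null and 17.3 in the control array and 1439760_x_at at 57.6 in the Hand2-null and 58.3 in the control array. Thus 1439760_x_at showed nearly the same signal in both arrays, 2 probe sets were higher by a bound, and 1457065_at has no fold. The names of both 1439760_x_at and 1455464_x_at mark probe sets that can bind related transcripts.

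Lrrn4 encodes a membrane protein with leucine-rich repeats that is known from mouse memory studies and marks mesothelium in the lung. Its probe set had a signal of 110 in the Hand2-null array and 50.8 in the control array, at least 1.72-fold higher. The control signal was 0.791 times the floor, the nearest to it among the members that were under it in the control and measured in the Hand2-null array by their best probe set.

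Msln and Muc16 encode a binding pair. Msln is mesothelin, a glycoprotein held on the mesothelial surface by a lipid anchor, and Muc16 is a large membrane mucin, known in humans as the carrier of the tumour marker CA125, to which mesothelin binds. Msln had a signal of 123 in the Hand2-null array and 43.3 in the control array, at least 1.91-fold higher. Muc16 had 33.3 in the Hand2-null array and 17.5 in the control array. Mesothelin was therefore measured only in the Hand2-null array, and its partner reached the floor in neither array, which leaves it without a fold.

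The set holds 2 nuclear factors. Bnc1 encodes basonuclin 1, a zinc finger protein, and had a signal of 114 in the Hand2-null array and 36.5 in the control array, at least 1.77-fold higher. Wt1 encodes a zinc finger transcription factor that acts in the development of kidney, gonads and mesothelium. Its single probe set had a signal of 541 in the Hand2-null array and 633 in the control array, a log2 ratio of -0.23. The ratio lay at the 22.6th percentile of measured genes. Its size is close to 0.22, the standard deviation of floored log2 ratios between probe sets of the same gene. That value was pooled over the 4065 genes with several measured probe sets. It comes from the same 2 arrays and is no error of a difference between pools. The genes with signals nearest to those of Wt1 in the 2 arrays, by Euclidean distance on the log2 scale, were Mrpl15 at 541 in the Hand2-null and 631 in the control array, Ifnar2 at 537 and 627 in that order, and Tomm22 at 545 and 642. With 2 arrays this likeness says only that level and ratio were alike.

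**Figure D2:**
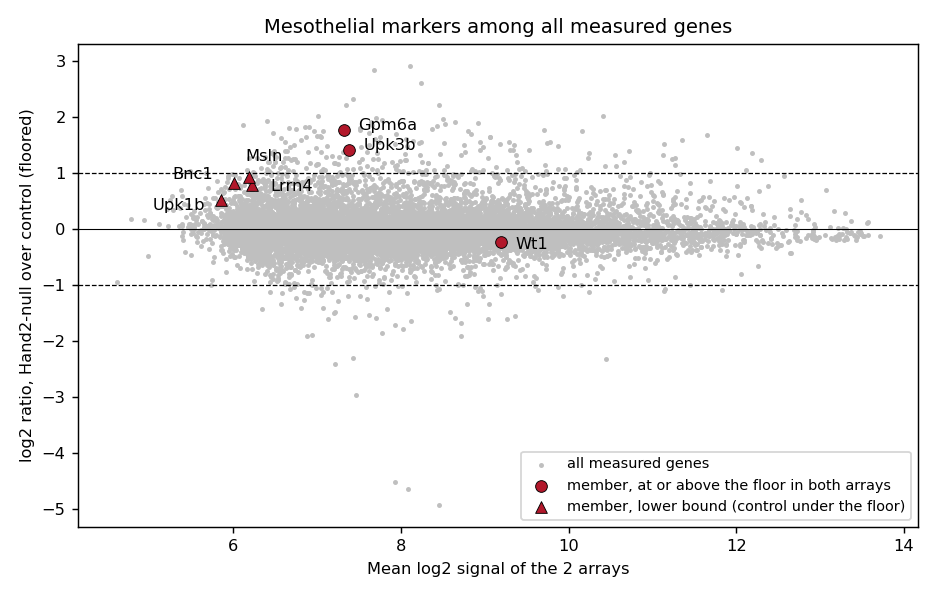
Log2 ratio of Hand2-null over control signal, floored, against the mean log2 signal of the 2 arrays for the 10371 measured genes (grey) and the 7 measured members (red). Circles are members above the floor in both arrays, triangles are lower bounds, and dashed lines mark 2-fold. Gpm6a at 1.77 and Upk3b at 1.42 lie above the upper line, the bounds of Msln, Bnc1, Lrrn4 and Upk1b lie between 0.53 and 0.93, and Wt1 lies at -0.23.

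The counts were set beside those of the whole array. Gpm6a and Upk3b were the 2 of 7 measured members that passed a floored fold of 2 upwards, where 1.99% of measured genes did, and 0 passed it downwards, where 0.742% did. By probe set, 2 of the 10 measured passed it upwards, against 1.79% of all measured probe sets, and 0 downwards, against 0.659%. By any amount, 6 of the 7 genes were higher, against 44.7% of measured genes, 1 was lower, against 55.3%, and 9 of the 10 probe sets were higher, against 45.8%. Of the higher ones, 4 genes and 7 probe sets were measured through the Hand2-null array alone. For these the direction follows from the floor, so both counts are descriptions only. With the floor at the 60th percentile, crossing of it was the more frequent pattern. Of the 13 probe sets, 7 were under it in the control array and at or above it in the Hand2-null array, as were 1.89% of the 34945 probe sets, and 0 went the other way, as 2.2% did. Among genes read by their best probe set, 4 of 8 crossed in that direction, against 1.75% of 18193. These crossings depend on where the floor was set. The control signals of the 4 genes lay at percentiles 50.6 to 56.2 of the control array. With the floor at the 50th percentile the 4 genes were above it in both arrays, and at the 75th none of them was measured. Without a floor 6 of the 8 genes were at least 2-fold higher, against 9.05% of genes, and 10 of the 13 probe sets, against 9.77%. With the floor at the 75th percentile the count was 0. It was also 0 without the probe sets ending in _x_at, _s_at or _a_at, which can read several transcripts. Both 2-fold calls rest on probe sets ending in _s_at, and the remaining ones give bounds of 1.47-fold for Gpm6a and 1.92-fold for Upk3b.

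Summed over the best probe sets of the 8 genes, the signal was 1581 in the Hand2-null array and 1006 in the control array. Wt1 alone gave 541 of the Hand2-null sum and 633 of the control sum. For the other 7 genes the sums were 1040 in the Hand2-null array and 373 in the control array, and no ratio of sums is given because most of these control signals were under the floor.

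Further genes of mesothelium were described as a separate list of 26, several of which are shared with epithelium, fibroblasts or muscle. Of the 25 on the array 16 were measured, 12 higher and 4 lower in Hand2-null cells, against 44.7% of measured genes higher. For Myrf, Cldn15 and Nkain4, measured through the Hand2-null array alone, a higher value follows from the floor. Past 2-fold there were 3 higher and 0 lower genes, against 1.99% and 0.742% of measured genes. The list's median log2 ratio, with bounds at their lowest value, was 0.34. Ptgis, the prostacyclin synthase, which smooth muscle makes too, was 2.94-fold higher, with a signal of 1075 in the Hand2-null array and 366 in the control array. Has1, a hyaluronan synthase, was 2.31-fold higher at 275 in the Hand2-null and 119 in the control array. Rspo1, a secreted enhancer of Wnt signalling, was 2.10-fold higher at 358 in the Hand2-null and 170 in the control array. These were the genes past 2-fold in that list.

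Under 2-fold, Krt19, a keratin of simple epithelia, had a signal of 966 in the Hand2-null and 498 in the control array, and Pdpn, the surface mucoprotein podoplanin, had 791 in the Hand2-null and 429 in the control array, log2 ratios of 0.96 and 0.88. Myrf, a membrane-bound transcription factor, reached the floor in the Hand2-null array and not in the control array, at least 1.59-fold, as did the tight junction gene Cldn15, at least 1.44-fold, and Nkain4, at least 1.22-fold. Among the other keratins, Krt7 had a log2 ratio of 0.40, Krt8 of 0.04 and Krt18 of -0.26. Ezr, the microvillus linker ezrin, had 0.24, Ildr2 0.22 and the matrix protein Efemp1 -0.07.

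The lower genes of that list included Aldh1a2, the retinaldehyde dehydrogenase that makes retinoic acid in mesothelium and in uterine stroma, with a signal of 544 in the Hand2-null array and 891 in the control array, a log2 ratio of -0.71. Slc39a8, a zinc transporter, had 355 in the Hand2-null and 521 in the control array. The mesothelial genes Calb2, Krt14, Anxa8, Chst4, Dmkn, Pkhd1l1, Bcam, Tbx18 and Fgf9 were under the floor in both arrays. Calretinin, the product of Calb2 and a usual mark of mesothelium in human pathology, was therefore not measured in either pool, with signals of 8.64 in the Hand2-null and 2.54 in the control array. Among the 12 measured genes that stand on no other list used here 9 were higher, against 44.7% of measured genes. The log2 ratios had a median of 0.41. The 9 include Myrf, Cldn15 and Nkain4, which were higher by bounds only.

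Relatives of the members were read to see whether the difference extended to their families. Gpm6b, the M6 protein nearest to Gpm6a, had a signal of 775 in the Hand2-null array and 541 in the control array, a log2 ratio of 0.52. The bladder uroplakins Upk1a, Upk2 and Upk3a were under the floor in both arrays, as were the stratified epithelial factor Trp63 and the urothelial keratin Krt20. Of the bladder and stratified epithelial markers only Krt5 reached the floor, with 74.9 in the Hand2-null and 25.4 in the control array, at least 1.17-fold higher. Uroplakins other than Upk1b and Upk3b were thus not measured in either pool.

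Among the membrane mucins, Muc1 had a signal of 190 in the Hand2-null and 173 in the control array, and Muc4 had 103 in the Hand2-null and 54.3 in the control array, at least 1.60-fold higher. Muc3, Muc13, Muc15 and Muc20 were under the floor in both arrays, as were Otoa and Strc, which are related to Msln. In the family of Lrrn4 the directions were mixed: Lrrn1 was 2.96-fold lower, at 102 in the Hand2-null and 303 in the control array, Lrrn3 had a log2 ratio of -0.56 and Lrrn2 was under the floor. Bnc2, the relative of Bnc1 that fibroblasts make, had 1149 in the Hand2-null and 694 in the control array by one probe set, a log2 ratio of 0.73, and 0.14 by its other measured probe set. Egr1, Egr2 and Egr3, whose zinc fingers resemble those of Wt1, had log2 ratios of 0.23, 0.04 and 0.13, with a second probe set of Egr2 at 0.72, and Egr4 was under the floor.

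Nerve genes were read because Gpm6a is neuronal. Of 7 nerve and Schwann cell markers on the array 1 was measured, Stmn2, a microtubule regulator of neurons, at 114 in the Hand2-null and 51.3 in the control array, at least 1.77-fold higher. Tubb3, Uchl1, Snap25, S100b, Sox10 and Th were under the floor in both arrays. Their summed signal with Stmn2 was 167 in the Hand2-null array and 110 in the control array. Stmn2 alone gave 114 of the Hand2-null sum and 51.3 of the control sum. The rest came from signals under the floor, so these sums do not describe nerve markers as a group.

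Markers of other cells of the uterine wall were read beside the mesothelial genes. Over all measured genes 44.7% were higher and 55.3% lower, and 1.99% passed 2-fold upwards. By their best probe set, all 15 smooth muscle markers on the array were higher in the Hand2-null array, and 13 passed 2-fold. Their median log2 ratio was 1.56, and they had a summed signal of 52820 in the Hand2-null and 22826 in the control array. For 2 of the 15 markers, measured through the Hand2-null array alone, a higher value follows from the floor. The remaining probe sets of Synpo2 went the other way, at log2 ratios of -0.47 and -0.25. Cnn1, the calponin of smooth muscle, was 4.06-fold higher, Myh11, the smooth muscle myosin, was 3.21-fold higher, and Acta2, smooth muscle actin, had a log2 ratio of 0.70 by one probe set and 1.72 by its other.

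Of the 20 epithelial markers 15 were higher, 1 of them by a bound only, and 5 were lower. The median of their log2 ratios was 0.21, and they had a summed signal of 16626 in the Hand2-null and 13594 in the control array. The epithelial adhesion genes Cdh1, at 856 in the Hand2-null and 746 in the control array, and Epcam, at 800 and 714 in that order, had log2 ratios of 0.20 and 0.16, with a second probe set of Epcam at 0.88. Lcn2 and Ltf, secreted products that estrogen induces, led that list with 2.22 and 1.49. Ltf gave 1566 of the Hand2-null sum and 559 of the control sum, and Lcn2 gave 758 and 162 in that order. Of 10 endothelial markers 9 were lower, with a median of -0.27 and a summed signal of 3721 in the Hand2-null and 4765 in the control array. Cdh5, the adhesion protein of endothelial junctions, was 2.16-fold lower and Pecam1 had a log2 ratio of -0.15. No marker was listed at 0 in either array. The same held for genes under the floor in both arrays, such as Calb2, so it does not show that a cell type was present. Mesothelium and smooth muscle adjoin in the uterine wall, and the part of the cell composition of the isolates in the mesothelial values was not tested.

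Stromal and other connective tissue lists had medians nearer to 0. Of 14 stromal markers 6 were higher and 8 lower. Their log2 ratios had a median of -0.12 that became 0.18 when the probe sets of a gene were averaged, and they had a summed signal of 62915 in the Hand2-null and 58588 in the control array. Fst, the activin-binding follistatin, was 3.21-fold lower and Col1a1, a collagen chain, had a log2 ratio of 0.98. Of 7 markers of outer connective tissue fibroblasts 4 were higher, with a median of 0.12, and Clec3b was 2.29-fold higher. Of 6 measured leukocyte markers 4 were higher, with a median of 0.14, the mast cell protease Cpa3 was 3.14-fold higher and Ptprc, the common leukocyte antigen, had a log2 ratio of 0.12.

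**Figure D3:**
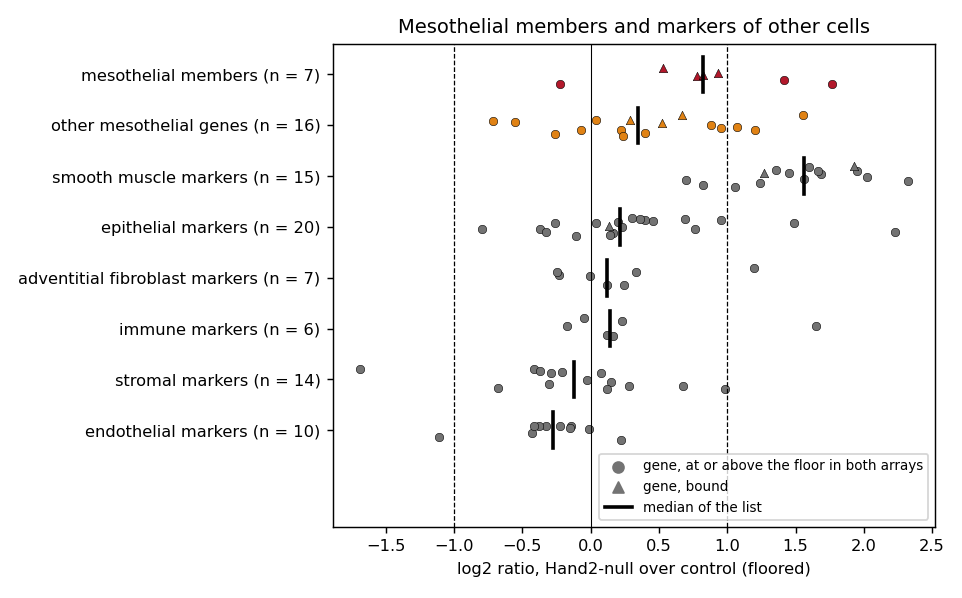
Floored log2 ratio of Hand2-null over control signal for each measured gene of 8 lists, 1 point per gene, with triangles for bounds and a black bar for the median of the list. Dashed lines mark 2-fold. The medians are 0.82 for the mesothelial members, 0.34 for further mesothelial genes, 1.56 for smooth muscle, 0.21 for epithelium, 0.12 for adventitial fibroblasts, 0.14 for leukocytes, -0.12 for stroma and -0.27 for endothelium.

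Promoter windows were available for 5 of the members, Bnc1, Gpm6a, Lrrn4, Muc16 and Upk3b, in the RefSeq table of build GRCm38.p6, each from 250 bases before to 50 bases after an annotated transcript start, with 2 windows for Gpm6a. Msln, Upk1b and Wt1 are named only. Windows of 4 genes whose signal was higher in Hand2-null cells are shown, so that their letters can be compared, in transcript orientation from 5′ to 3′. Capitals mark matches, on either strand, to CATCTG or to the palindrome CATATG (E-boxes, which basic helix-loop-helix factors such as HAND2 can bind), GCGTGGG (bound by WT1 and EGR factors), GGAATG (bound by TEAD factors) and the letters of GATA factors, which are AGATAA and its variants with T as the first letter, G as the last, or both.
Gpm6a promoter window, chr8:54779184-54779483, strand +: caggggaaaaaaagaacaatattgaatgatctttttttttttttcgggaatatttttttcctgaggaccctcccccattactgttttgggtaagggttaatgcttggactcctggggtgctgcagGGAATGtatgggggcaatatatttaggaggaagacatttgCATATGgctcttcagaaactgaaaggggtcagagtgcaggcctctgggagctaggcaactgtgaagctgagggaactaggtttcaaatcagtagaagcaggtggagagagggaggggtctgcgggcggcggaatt
Upk3b promoter window, chr5:136038246-136038545, strand +: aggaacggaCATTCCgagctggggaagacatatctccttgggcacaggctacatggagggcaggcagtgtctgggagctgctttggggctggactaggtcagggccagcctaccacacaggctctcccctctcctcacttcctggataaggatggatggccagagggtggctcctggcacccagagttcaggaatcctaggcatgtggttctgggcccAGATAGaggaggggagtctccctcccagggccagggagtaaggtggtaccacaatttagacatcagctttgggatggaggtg
Lrrn4 promoter window, chr2:132880813-132881112, strand -: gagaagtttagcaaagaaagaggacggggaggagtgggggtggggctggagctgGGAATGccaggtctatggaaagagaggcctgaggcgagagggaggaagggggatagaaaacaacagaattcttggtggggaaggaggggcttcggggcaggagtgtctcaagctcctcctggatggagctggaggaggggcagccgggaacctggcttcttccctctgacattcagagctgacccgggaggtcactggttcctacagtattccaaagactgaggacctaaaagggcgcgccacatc
Bnc1 promoter window, chr7:81992250-81992549, strand -: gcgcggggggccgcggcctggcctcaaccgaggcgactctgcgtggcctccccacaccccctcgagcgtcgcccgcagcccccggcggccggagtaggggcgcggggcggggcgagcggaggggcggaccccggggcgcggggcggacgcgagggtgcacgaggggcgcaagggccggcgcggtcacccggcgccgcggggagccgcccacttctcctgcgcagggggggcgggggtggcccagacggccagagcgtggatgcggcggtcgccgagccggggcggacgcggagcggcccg

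GGAATG or its reverse complement was present in 3 of the 6 windows, those of Upk3b, Lrrn4 and the first of Gpm6a, with its first base at positions -241, -196 and -125 from the start in that order, and it is present in 14.7% of the 32851 windows of the table. CATATG was present in the first Gpm6a window, at position -85, and in 3.91% of all windows. CATCTG was present in the Muc16 window alone among the members, at position -116, and in 17.2% of all. The GATA letters were in 3 windows, at position -32 in Upk3b, at positions -142 and -107 in the second Gpm6a window and at position -238 in Muc16, and in 29.8% of all. GCGTGGG was in none of the 6 and in 5.04% of all. The motifs do not overlap each other in these windows. Among E-boxes only CATCTG and CATATG were searched, so other E-boxes in these windows stand unmarked.

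The windows differ in composition. That of Bnc1 is 83.3% G or C with 50 CpG dinucleotides, and those of the first Gpm6a window, Upk3b and Lrrn4 hold 4, 2 and 7, against a median of 7 over all windows. These matches describe letters and no binding was measured.

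**Figure D4:**
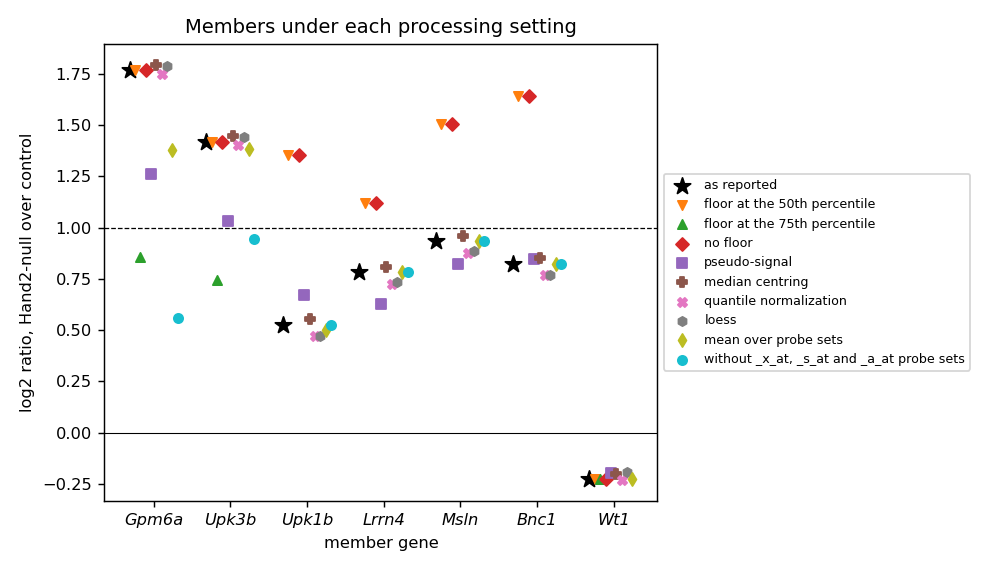
Log2 ratio of Hand2-null over control signal of each measured member gene (horizontal axis) as reported (black star) and under each alternative setting (coloured symbols). A dashed line marks 2-fold. Each setting under which a gene was measured places the 6 higher members above 0 and Wt1 between -0.23 and -0.19. Gpm6a ranges from 0.56 to 1.79 and Bnc1 from 0.77 to 1.64. For Msln, Bnc1, Lrrn4 and Upk1b a value above 0 follows from the floor wherever the control signal is under it.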

How the data were processed

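The deposited values are array intensity (MAS5 signal, linear scale), which the submitters' processing notes credit to the authors' use of MAS5 and of Affymetrix Expression Console 1. The mean after trimming 2% at each end was 150.001 in the Hand2-null array and 150.001 in the control array, so each array had been scaled to one mean. MAS5 subtracts mismatch probe signals, which makes the ratio of dim probe sets less steady. No genome build of the authors' processing is given in the sources used here. The 64 control probe sets were left out. Signals were put on a log2 scale, floored at the 60th percentile of each array, and each gene was read by its probe set of highest mean log2 signal. Members of the mesothelial set were named by the rule that all 8 genes and every probe set are given. Of other lists the up to 4 genes with the largest ratio in size may be named, together with further mesothelial genes, relatives of the members and defining cell markers. The members and the lists were chosen with earlier results of these data known, and no list is support for another. No test was made, since having 1 array per genotype sets the precision. Alternatives were 3 other treatments of the floor, a pseudo-signal, 3 scalings, 2 rules for probe sets and 2 fold thresholds. The procedure was tested on simulated data. Changes were simulated only in probe sets well above the floor, so that test does not cover the dim range of most members. The software was Python 3.11.15 with matplotlib 3.10.9, statsmodels 0.14.6, scipy 1.17.1, pandas 2.3.3 and numpy 2.4.6.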

Additional observations from a re-analysis of the deposited data

How the results depend on the processing

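The direction of every measured member held under each alternative in which it was measured. For Msln, Bnc1, Lrrn4 and Upk1b this follows from the floor wherever the control signal was under it, so it is a description only. The number of member genes at least 2-fold higher, 2 as reported, was 6 with the floor at the 50th percentile (2.52% of all measured genes). It was 0 with the floor at the 75th (1.56%), 6 with no floor (9.05%) and 0 without probe sets ending in _x_at, _s_at or _a_at (2.09%). At a threshold of 1.5-fold it was 5 (6.21%) and at 3-fold 1 (0.472%). By probe set, 2 as reported, the counts in the same order were 9 (2.21% of all measured probe sets), 0 (1.38%), 10 (9.77%), 0 (1.95%), 6 (5.96%) and 1 (0.353%). With the floor at the 75th percentile only 3 members were measured, and without the probe sets of those endings Wt1 had none left. The median log2 ratio of the members was 1.42 at the 50th percentile floor and 1.39 with no floor, against 0.82, and between 0.74 and 0.85 under the other alternatives. Of 58 alternative values of single members 15 differed by more than 0.22, the standard deviation between probe sets of a gene, as did 4 of 80 values of the other lists' medians. Most of the members lie near the floor, so signal over background limits their folds. No paired analysis was possible because there is 1 pooled array per genotype, and no replicate could be left out.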
